A study of Mus musculus with 8 samples.

Results

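The 9 genes described here encode the pore subunits of AMPA receptors and some of the auxiliary proteins that travel with them. They are Gria1, Gria2, Gria3 and Gria4 for the pore, Cacng2, Cacng3 and Cacng8 for the TARPs (transmembrane AMPA receptor regulatory proteins), and Cnih2 and Cnih3 for the cornichons. They were taken by gene symbol, and all 9 are in the deposited table of 31417 genes. RNA was sequenced from the striatum of Dclk3 knockout (KO) mice and wild-type (WT) controls aged 12 months, with 4 animals in each group and 1 striatum per library. Dclk3 encodes a doublecortin-like kinase enriched in the striatum. The comparison asks whether its loss goes with a difference in transcript level. The labels do not name the strain, the deleted part of the gene or the cells in which it was deleted, and they give no other allele or treatment for either group.

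AMPA receptors are glutamate-gated cation channels built from 4 pore subunits and carry most fast excitatory transmission in the brain. In the striatum they receive the input from cortex and thalamus, chiefly on GABAergic medium spiny neurons. TARPs and cornichons bind the pore subunits, help bring them to the cell surface and slow their closing. Receptors that hold an edited GluA2, the product of Gria2, let little calcium through, and receptors without it pass calcium.

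The residue that sets this calcium permeability lies in the pore loop and is changed in GluA2 by A-to-I editing of a single codon in the transcript. The coding sequence around that codon is shown for the 4 pore genes, because it is the stretch in which their roles part while their sequences stay close. It was read from GENCODE transcripts on GRCm38, 5′ to 3′ on the coding strand, with the codon of the edited residue, or its counterpart in the other genes, in capitals.
Gria1: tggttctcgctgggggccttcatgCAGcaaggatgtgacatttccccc
Gria2: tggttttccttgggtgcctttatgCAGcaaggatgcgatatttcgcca
Gria3: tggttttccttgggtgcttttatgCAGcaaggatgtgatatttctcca
Gria4: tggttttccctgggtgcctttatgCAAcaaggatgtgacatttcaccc

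Each window of 48 bases lies within exon 11 of its transcript. It is at chr11:57243070-57243117 on the plus strand for Gria1, chr3:80706890-80706937 on the minus strand for Gria2, chrX:41610241-41610288 on the plus strand for Gria3 and chr9:4464116-4464163 on the minus strand for Gria4. Between Gria2 and Gria3 3 of the 48 bases differed, and between Gria1 and Gria2 9 differed. The longest run shared base for base by 2 pore transcripts was 50 bases, between Gria3 and Gria4, and the other 5 pairs shared 22 to 35 bases. The deposited values are whole-gene sums and carry no sequence, so they do not separate edited from unedited Gria2 transcripts, nor splice forms.

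Total counts ran from 24441242 to 34919463 in KO libraries and from 28776767 to 37145559 in WT libraries. Dclk3 averaged 22.7 ± 3.55 CPM (read counts relative to library size, scaled by TMM) in KO striata and 94.7 ± 15.8 CPM in WT striata (SD, n = 4 each), with a log2 fold change of -2.06 and, in edgeR's quasi-likelihood fit over 16511 genes, an adjusted p of 0.000773. The summed level of 8 medium spiny neuron markers was 2809 to 3239 CPM in KO and 2869 to 3466 CPM in WT libraries, with 5 of the 8 above 0 in log2 fold change, a median of 0.016 and 0 past the threshold. The other marker lists, with 0 past the threshold in each, mostly leaned to 1 side. Above 0 lay 6 of 6 thalamic (median 0.43), 6 of 6 oligodendrocyte (0.19) and 6 of 6 microglia markers (0.09). So did 6 of 7 astrocyte (0.15), 5 of 6 endothelial (0.26), 3 of 4 oligodendrocyte precursor (0.06) and 5 of 8 interneuron markers (0.05). Cortical markers had 1 of 8 above 0 (-0.17) and choroid plexus markers 0 of 5 (-2.53), against 49.5% of all genes. Markers of a cell type can vary together, so these are not counts of independent genes. The thalamic sum was 300 and 465 CPM in KO replicates 1 and 4 and 180 and 168 CPM in KO replicates 2 and 3. In WT libraries it was 165 to 274 CPM. Tissue next to the striatum was also present. The summed level of 5 choroid plexus markers was 48.7 to 237 CPM in KO libraries, against 37.9 to 86.8 CPM in WT replicates 1 to 3 and 2882 CPM in WT replicate 4. On the first principal component, with 26.8% of the variance, WT replicate 4 and KO replicate 4 lay at opposite ends.

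All 9 genes were well above the low-count filter in both genotypes, and 0 of the 9 differed between KO and WT at an adjusted p under 0.05 (edgeR quasi-likelihood). Over all genes tested 0.00606% were called, a single gene, Dclk3, so a count of 0 among 9 is what the background gives. DESeq2 and limma-voom also called 0 of the 9 after adjustment. At an unadjusted p under 0.05 the count in the edgeR fit was 0 of 9, against 3.76% of all genes. By contrast, limma-voom gave Gria4 an unadjusted value of 0.033, and edgeR gave Cnih3 0.0252 with no filter on low counts. Leaving out libraries or adding a replicate block in edgeR also gave values under 0.05. The smallest were 0.0101 for Cnih2, 0.0134 for Cnih3, 0.019 for Gria4 and 0.0402 for Gria2. In the other members no setting gave less than 0.0882, and no adjusted p of a member fell below 0.398. In no member did KO and WT libraries separate without overlap, against 1.93% of all genes in either direction. Of the 9 log2 fold changes 5 lay above 0, a share of 55.6% against 49.5% of all genes, with a median of 0.036 against -0.0011. The values ran from -0.19 for Cnih3 to 0.11 for Gria4. Among the 95% intervals of the 9, the lowest limit was a KO/WT ratio of 0.766 and the highest 1.18. Each interval holds for 1 gene at a time and for the mean level in whole striatum, not for single cell types.

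**Figure D1:**
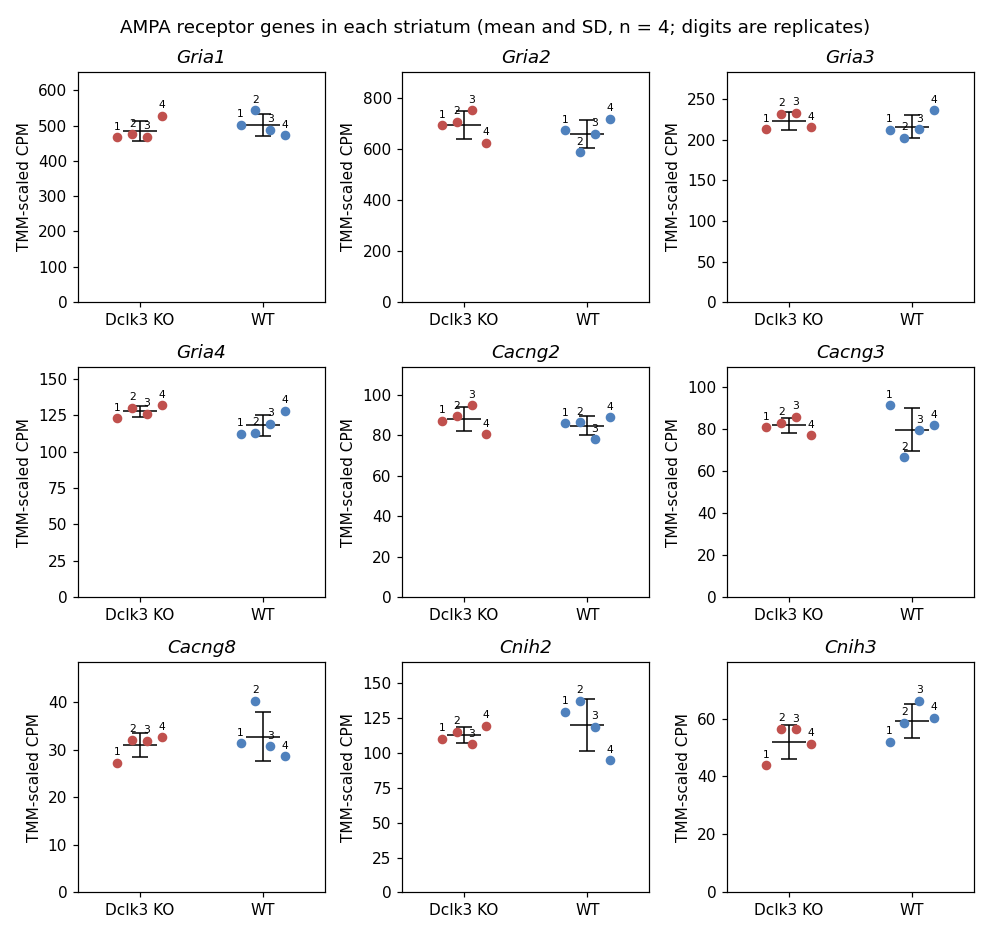
TMM-scaled CPM (vertical axes, from 0) of each AMPA receptor gene in 4 Dclk3 KO and 4 WT striata; points are libraries with their replicate number, and the bar and whiskers are the mean and SD. KO and WT points overlap in all 9 panels, and Cnih3 and Gria4 have the smallest p-values, 0.0633 and 0.0746 before adjustment.

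Gria1 (ENSMUSG00000020524, chr11:57011387-57330244, plus strand) encodes GluA1, a subunit that is added to synapses during plasticity. It measured 467, 476, 468 and 529 CPM in KO replicates 1 to 4, against 502, 544, 488 and 472 CPM in WT replicates 1 to 4. KO replicate 4 stood above the other KO libraries, and the groups overlapped. On the log2 scale KO differed from WT by -0.05 (SE 0.07, 95% interval -0.19 to 0.09), with an adjusted p of 0.999 in edgeR.

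Gria2 (ENSMUSG00000033981, chr3:80681450-80802835, minus strand) gave the most counts of the 9 genes. It was at 694, 709, 754 and 625 CPM in KO replicates 1 to 4, against 674, 588, 662 and 719 CPM in WT replicates 1 to 4. KO replicate 4 and WT replicate 2 were the lowest of their groups, and the ranges overlapped over most of their width. The means were 695 ± 53.5 CPM in KO and 661 ± 54.2 CPM in WT (SD, n = 4 each). This difference of 0.07 on the log2 scale (95% interval -0.09 to 0.24) did not pass the test (adjusted p = 0.999, edgeR).

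Gria3 (ENSMUSG00000001986, chrX:41400854-41678601, plus strand), the X-linked pore gene, was at 213, 232, 234 and 215 CPM in KO replicates 1 to 4, against 213, 203, 213 and 237 CPM in WT replicates 1 to 4. Its KO range lay inside its WT range. The log2 fold change was 0.05 (95% interval -0.09 to 0.19; edgeR adjusted p = 0.999).

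Gria4 (ENSMUSG00000025892, chr9:4417896-4796234, minus strand) encodes GluA4, which is typical of fast-spiking interneurons and thalamic neurons. It measured 123, 130, 126 and 132 CPM in KO replicates 1 to 4, against 112, 113, 119 and 128 CPM in WT replicates 1 to 4. KO libraries stood above WT replicates 1 to 3, and WT replicate 4 lay within the KO range. KO differed from WT by 0.11 on the log2 scale (SE 0.06, 95% interval -0.01 to 0.24), with an adjusted p of 0.999 in edgeR and an unadjusted value of 0.0746. Markers of the cell types that express it varied between libraries. The sum of 6 thalamic markers was 300, 180, 168 and 465 CPM in KO replicates 1 to 4 and 200, 274, 165 and 184 CPM in WT replicates 1 to 4, and 0 of the 6 were absent from any library. The sum of 8 interneuron markers, likewise with 0 absent, was 276 to 361 CPM in KO and 252 to 356 CPM in WT. Of these 8, 5 lay above 0 in log2 fold change, with a median of 0.05. Pvalb, the marker of fast-spiking interneurons in that list, was at 47.4 to 84.8 CPM in KO and 44.6 to 52.4 CPM in WT. It was named after its value was seen, and its log2 fold change was 0.49 (edgeR adjusted p = 0.999, and 0.0227 before adjustment). In the same list Lhx6 was at 20.3 to 25.2 CPM in KO and 20.5 to 23.6 CPM in WT. Sst was at 103 to 165 CPM in KO and 109 to 197 CPM in WT. The part of these cells in the Gria4 values was not tested. In bulk tissue a change in the number of cells of a type and a change in RNA per cell cannot be told apart.

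The TARP genes also overlapped between genotypes. Cacng2 (ENSMUSG00000019146, chr15:77991748-78120028, minus strand) encodes stargazin, the founding TARP. It was at 87.3, 89.4, 94.8 and 80.5 CPM in KO replicates 1 to 4, against 86.0, 86.5, 78.1 and 88.9 CPM in WT replicates 1 to 4. Its log2 fold change was 0.05 (95% interval -0.09 to 0.19). An antisense gene, A730060N03Rik, overlaps its exons, and no source used here says whether reads were counted by strand.

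Cacng3 (ENSMUSG00000066189, chr7:122670492-122769393, plus strand) encodes the TARP gamma-3. Its values were 81.1, 83.1, 86.1 and 77.3 CPM in KO replicates 1 to 4, against 91.5, 66.6, 79.6 and 82.0 CPM in WT replicates 1 to 4. WT libraries spread more widely than KO libraries, with coefficients of variation of 4.54% in KO and 12.8% in WT. The log2 fold change of 0.04 (95% interval -0.15 to 0.22) turned to -0.04 without WT replicate 2.

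Cacng8 (ENSMUSG00000053395, chr7:3390683-3415648, plus strand) encodes the TARP gamma-8, best known for its role in the hippocampus. It had the fewest counts of the 9 genes, at 27.2, 32.0, 31.8 and 32.6 CPM in KO replicates 1 to 4, against 31.3, 40.3, 30.7 and 28.6 CPM in WT replicates 1 to 4. The lowest KO value, in replicate 1, and the highest WT value, in replicate 2, stood apart from the rest of their groups. The log2 fold change was -0.08 (95% interval -0.31 to 0.14), and it was 0.03 without WT replicate 2. The adjusted p of each TARP gene was 0.999 (edgeR).

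The cornichon genes both had lower means in KO, and neither passed the test. Cnih2 (ENSMUSG00000024873, chr19:5092868-5098521, minus strand) encodes a cornichon that promotes export of AMPA receptors from the endoplasmic reticulum. It measured 110, 115, 106 and 120 CPM in KO replicates 1 to 4, against 130, 138, 119 and 94.7 CPM in WT replicates 1 to 4. KO libraries fell in a narrow band, with WT replicates 1 and 2 above it, WT replicate 3 inside it and WT replicate 4 below it. The log2 fold change was -0.09 (95% interval -0.31 to 0.13; edgeR adjusted p = 0.999). Without WT replicate 4, the library with the high choroid plexus level, it was -0.19 with an adjusted p of 0.617, and without WT replicate 2 it was -0.018. Exons of Cnih2 overlap those of Yif1a on the opposite strand, so its counts could include reads of that gene.

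Cnih3 (ENSMUSG00000026514, chr1:181352628-181460641, plus strand) is the other cornichon gene. It was at 43.9, 56.5, 56.2 and 51.2 CPM in KO replicates 1 to 4, against 51.9, 58.5, 66.2 and 60.2 CPM in WT replicates 1 to 4. KO replicates 2 and 3 lay within the WT range, and KO replicates 1 and 4 lay below it. The means were 52.0 ± 5.91 CPM in KO and 59.2 ± 5.88 CPM in WT (SD, n = 4 each). Its log2 fold change of -0.19 (SE 0.09, 95% interval -0.39 to 0.01) was the most negative of the 9. The adjusted p was 0.999 in edgeR and the unadjusted value 0.0633. With single libraries left out the fold change ran from -0.25 without WT replicate 1 to -0.11 without KO replicate 1. The sum of 8 cortical glutamatergic markers was also lowest in KO replicates 1 and 4. It was at 913, 1233, 1138 and 756 CPM in KO replicates 1 to 4, against 1006, 1467, 1195 and 1284 CPM in WT replicates 1 to 4. Taken instead as the mean of the markers' centred log2 CPM, the cortical level was -0.11 and -0.56 in KO replicates 1 and 4 and 0.22 and 0.10 in KO replicates 2 and 3, against -0.16, 0.13, 0.05 and 0.32 in WT replicates 1 to 4. 0 of these 8 markers were absent from any library, and the part of cortical RNA in the Cnih3 values was not tested.

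**Figure D2:**
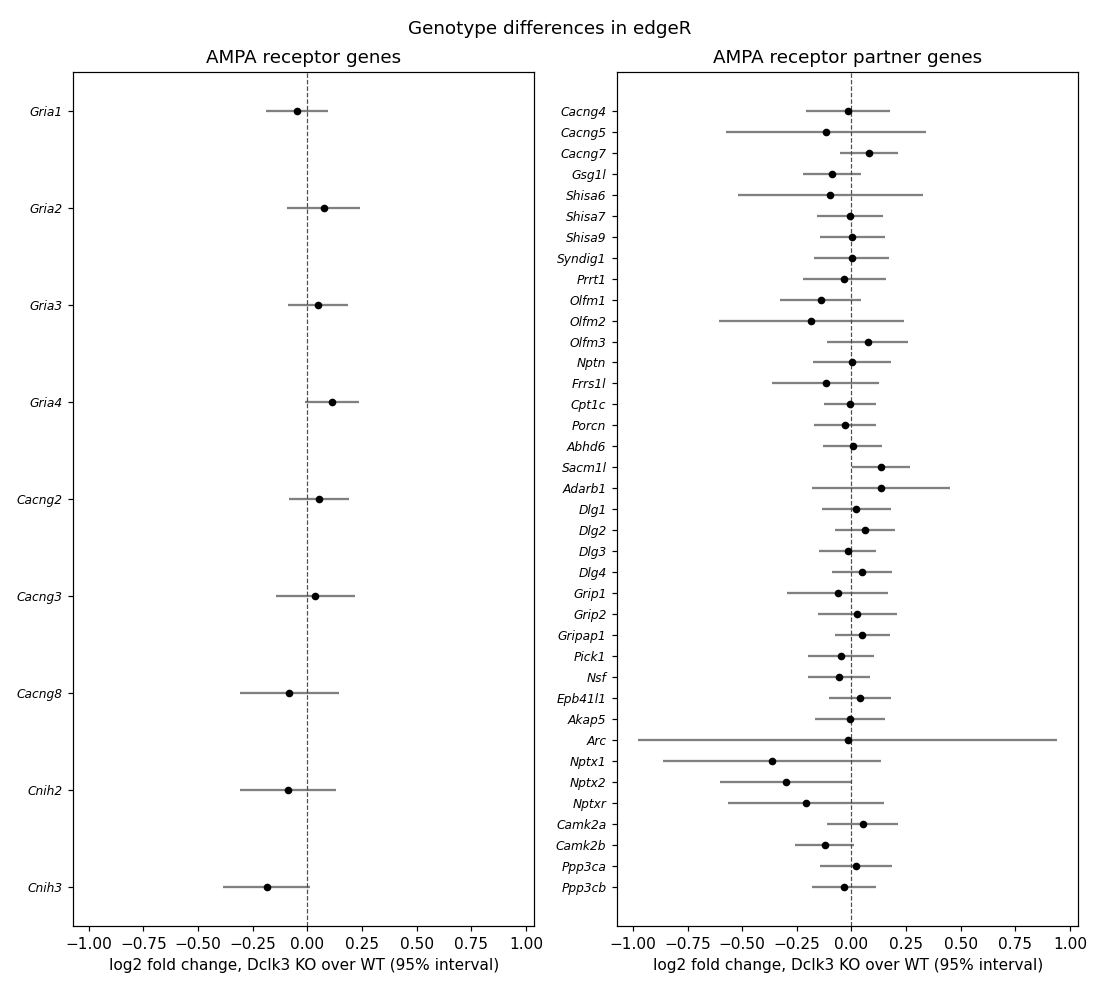
Log2 fold change, Dclk3 KO over WT, with its 95% interval from edgeR (horizontal axes) for the 9 AMPA receptor genes (left) and the tested partner genes (right; Shisa8, at under 2 CPM and with a log2 fold change of -0.90, and 1 gene not reported here are left out). Every interval of the 9 genes includes 0, with Cnih3 lowest at -0.19 and Gria4 highest at 0.11.

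Levels of different genes were compared as CPM per kilobase of exon. On this scale, with the union of all annotated exons as length, Cnih2 and Gria1 were the most abundant in KO striata, at 82.4 ± 4.27 and 80.2 ± 4.86 CPM per kilobase (SD, n = 4). In WT striata they were at 87.8 ± 13.6 and 83.0 ± 5.07 CPM per kilobase, and the ranges of this pair overlapped in both genotypes. Gria2 came next, with 44.7 ± 3.44 CPM per kilobase in KO and 42.5 ± 3.49 in WT, clear of its neighbours on both sides. Cacng3 followed at 29.5 ± 1.34 CPM per kilobase in KO and 28.8 ± 3.68 in WT.

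Lower in the order, Gria3, Gria4 and Cnih3 lay between 18.9 and 22.7 CPM per kilobase in KO and between 18.7 and 21.9 in WT. In KO Cacng3 and Gria3 did not overlap and neither did Gria3 and Gria4, whereas in WT each of these genes overlapped the next in the order from Cacng3 to Gria4. Cacng2 had 16.0 ± 1.07 CPM per kilobase in KO and 15.4 ± 0.846 in WT. Cacng8 was lowest, with 13.2 ± 1.07 CPM per kilobase in KO and 14.0 ± 2.21 in WT, and overlapped Cacng2 in WT but not in KO. Whether the order itself differed between genotypes was not tested.

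The order depended on the length assigned to each gene. The union of exons of Gria2 spans 15.55 kb, against 10.37 kb for its longest protein-coding transcript, and that of Gria3 9.859 kb against 5.192 kb. With the longest protein-coding transcript as length, Gria1 came first, Gria3 stood above Cacng3 and Cacng2 took the ninth place. The first 3 places were held by Gria1, Cnih2 and Gria2 with either length.

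**Figure D3:**
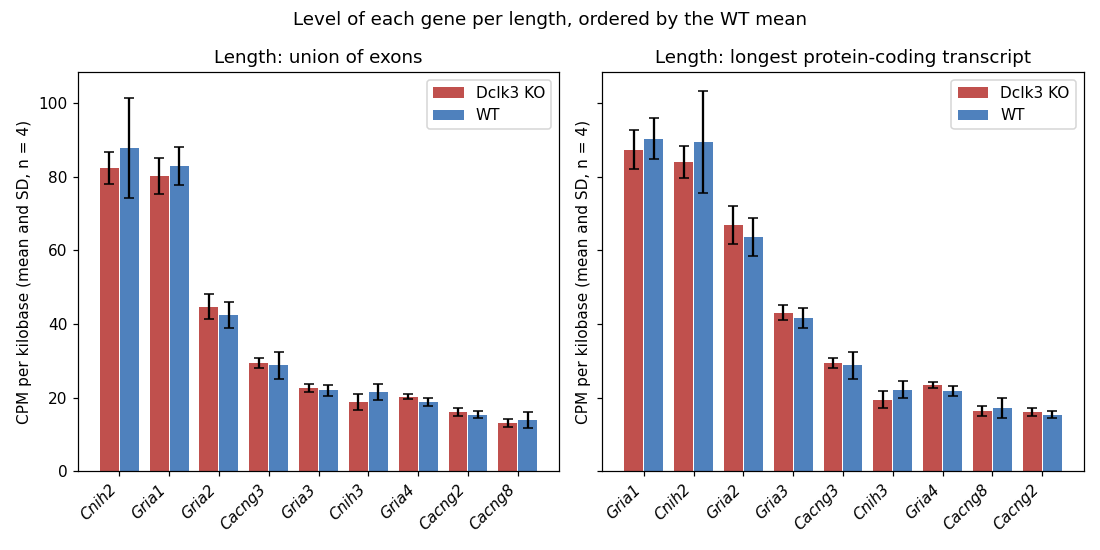
CPM per kilobase (mean and SD, n = 4, bars from 0) of the 9 genes in Dclk3 KO and WT striata, ordered by the WT mean, with the union of exons (left) or the longest protein-coding transcript (right) as gene length. Gria1, Cnih2 and Gria2 are the 3 highest in both panels, and Gria3 stands above Cacng3 only in the right one.

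Because calcium permeability depends on GluA2, the share of Gria2 in the sum of the 4 pore transcripts was followed in each library. Per kilobase of exon it was 27.4, 27.1, 28.6 and 23.6% in KO replicates 1 to 4, against 26.1, 22.7, 26.0 and 27.4% in WT replicates 1 to 4. The groups overlapped, with means of 26.6 ± 2.15% in KO and 25.6 ± 1.99% in WT (SD, n = 4 each), a difference of 1.07 percentage points. The shares of the pore transcripts were not tested between genotypes. Gria1 made up 47.8 ± 2.48% in KO and 49.95 ± 3.21% in WT. Gria3 made up 13.5 ± 0.569% in KO and 13.2 ± 0.768% in WT, and Gria4 12.1 ± 0.229% in KO and 11.3 ± 0.623% in WT. The size of the Gria2 share depends on the length used: in WT it was 29.3% with the longest protein-coding transcript and 44.1% with no division by length. These are shares of transcripts, not of receptor proteins.

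**Figure D4:**
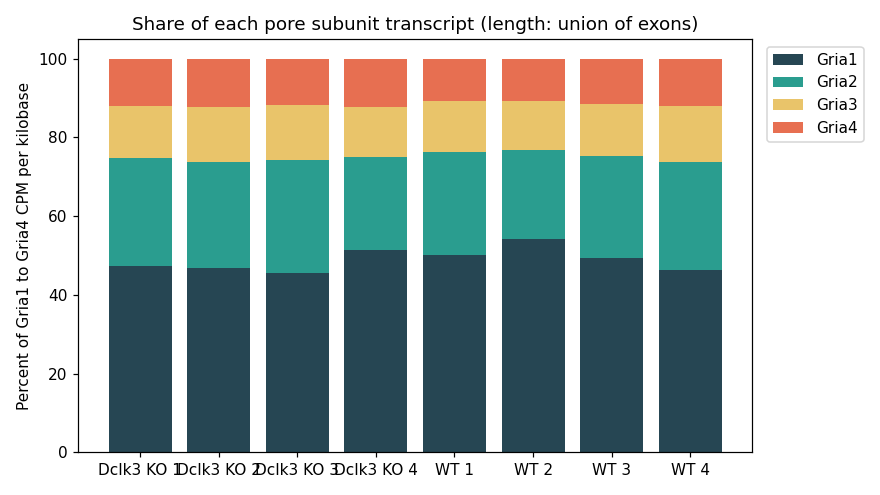
Percent of the summed CPM per kilobase of Gria1 to Gria4 (vertical axis) taken by each pore subunit transcript in the 4 Dclk3 KO and 4 WT libraries, with the union of exons as length. Gria1 holds the widest part of every bar, and the Gria2 part is narrowest in WT replicate 2 (22.7%) and KO replicate 4 (23.6%).

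Within the auxiliary genes the proportions were likewise close. Cacng3 supplied 50.3 ± 0.908% of the transcripts of the 3 member TARPs in KO and 49.4 ± 4.92% in WT, per kilobase of exon. This sum leaves out Cacng4, Cacng5 and Cacng7, which are listed as partners, so it is not a share of all TARP transcripts. Cacng7 averaged 144 CPM in KO and 136 CPM in WT over 2441 bases of exon. Cacng3 averaged 81.9 and 79.9 CPM over 2777 bases. Cnih2 supplied 81.4 ± 1.96% of the 2 cornichon transcripts in KO and 80.0 ± 3.52% in WT (SD, n = 4 each). The ratio of summed transcripts of the same 3 TARPs to summed pore transcripts per kilobase was 0.347, 0.355, 0.364 and 0.331 in KO replicates 1 to 4. It was 0.373, 0.342, 0.341 and 0.343 in WT replicates 1 to 4, with overlapping ranges. For the cornichons the ratio was 0.592, 0.622, 0.577 and 0.622 in KO, against 0.685, 0.733, 0.676 and 0.540 in WT, where WT replicate 4 lay below every KO library and the other WT libraries above them.

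The members did not vary as a block. Relative to the mean of the 8 libraries, Gria2 was at -0.11 in KO replicate 4 and -0.20 in WT replicate 2 on the log2 scale, its lowest values, and Gria1 was at 0.10 and 0.14 in those libraries, its highest. Gria3 and Cacng3 were below their means in both libraries too, and Cacng8 was above its mean in both, at 0.04 and 0.35. WT replicate 4 showed the opposite arrangement, with Gria2 at 0.09, Gria3 at 0.11, Gria1 at -0.06, Cacng8 at -0.15 and Cnih2 at -0.29.

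The genes differ in base composition, and the libraries differed along that axis. GC content of the longest protein-coding transcript was 36.8% for Gria2, 43.0% for Gria3, 44.3% for Gria4 and 48.5% for Gria1, and ran from 51.2% to 65.0% in the TARP and cornichon genes, with Cacng8 and Cnih2 highest. For each library the median deviation of the most GC-rich 20% of genes minus that of the most GC-poor 20% was taken. It was -0.10, -0.03, 0.01 and 0.03 on the log2 scale in KO replicates 1 to 4, and 0.10, 0.05, 0.04 and -0.11 in WT replicates 1 to 4. With this value as a covariate in the fit, a setting chosen after seeing the data, the log2 fold change of Cnih2 was 0.0020 and that of Cnih3 -0.18, and 0 of the 9 genes passed the threshold (lowest adjusted p 0.980, edgeR).

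**Figure D5:**
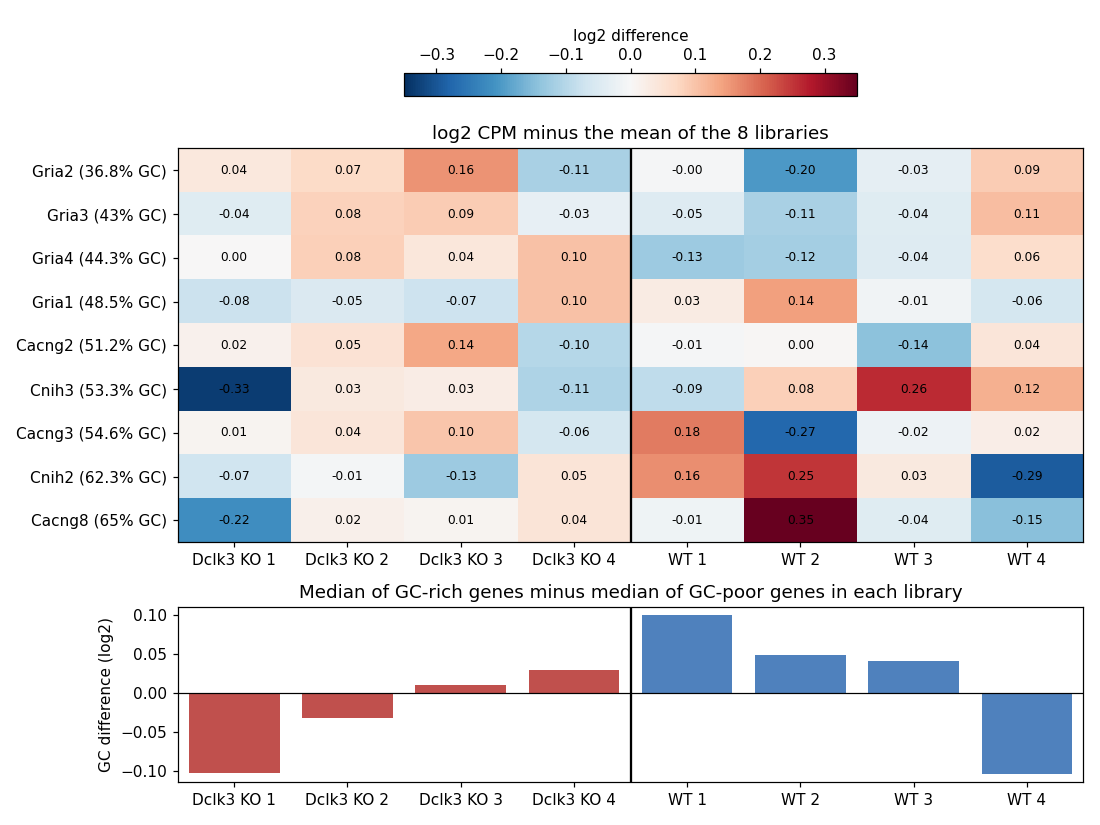
Top, log2 CPM of each gene minus its mean over the 8 libraries, with genes ordered by the GC content of their longest protein-coding transcript and the 4 Dclk3 KO libraries left of the 4 WT libraries. Bottom, the GC difference of each library on the log2 scale; WT replicate 4 (-0.11) and KO replicate 1 (-0.10) are lowest and WT replicate 1 (0.10) is highest.

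Genes that act with AMPA receptors gave a similar result. Of 41 listed partner genes, 40 passed the low-count filter and 0 passed the threshold (edgeR, Benjamini-Hochberg), against 0.00606% of all genes. An unadjusted p under 0.05 was reached by 1 of the 40, or 2.50%, against 3.76% of all genes, and DESeq2 and limma-voom called 0 of them. Their median log2 fold change was -0.017, with 16 above 0 and 24 below. Prrt2 was left out by the filter, with 5 to 13 counts per library, and overlaps Gm42742 on the same strand.

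Among the 14 tested other auxiliary subunits, the 3 with the smallest p were Shisa8, Olfm1 and Gsg1l. Shisa8 was at 0.428 ± 0.127 CPM in KO and 0.796 ± 0.582 CPM in WT (SD, n = 4 each), where WT replicate 2 alone reached 1.63 CPM. Olfm1, which encodes the secreted protein noelin-1 found in AMPA receptor complexes, had a log2 fold change of -0.14, and Gsg1l, an auxiliary subunit that dampens receptor currents, -0.09. The TARP-family genes Cacng4, Cacng5 and Cacng7 had log2 fold changes of -0.02, -0.12 and 0.08.

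In the list for assembly, export and RNA editing, 3 of 6 genes lay above 0. Sacm1l, a lipid phosphatase gene, was at 107, 95.1, 97.7 and 106 CPM in KO replicates 1 to 4, against 88.2, 90.3, 91.3 and 100 CPM in WT replicates 1 to 4, and WT replicate 4 lay within the KO range. It had the smallest p of the 40 (0.0490 before adjustment), with a log2 fold change of 0.13 and an adjusted p of 0.999 in edgeR. Its exons overlap Slc6a20b on the opposite strand. Frrs1l, which helps assemble AMPA receptors in the endoplasmic reticulum, had -0.12. Adarb1 encodes ADAR2, the enzyme that edits the Gria2 codon shown in capitals above. It was at 304, 255, 267 and 398 CPM in KO and 275, 324, 249 and 266 CPM in WT replicates 1 to 4, with KO replicate 4 the highest. KO over WT gave 0.14 on the log2 scale (95% interval -0.18 to 0.45).

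The 12 anchoring and trafficking genes lay between -0.06 and 0.06, with Dlg2, a postsynaptic scaffold gene, at 0.06, Nsf, a membrane fusion ATPase gene, at -0.06 and Gripap1, which encodes an endosomal partner of the GRIP scaffold, at 0.05. Arc, at -0.02, varied most of them between libraries, from 77.7 to 266 CPM in KO and from 131 to 263 CPM in WT. Its 95% interval, -0.98 to 0.94, bounds a difference only loosely. Of the kinases and phosphatases, Camk2b had a log2 fold change of -0.12 (edgeR adjusted p = 0.999, and 0.0736 before adjustment) and Camk2a 0.05.

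All 3 neuronal pentraxin genes, whose products cluster AMPA receptors from outside the cell, had lower means in KO, and 0 of the 3 passed the test. Nptx2 was at 34.4, 38.9, 43.5 and 32.5 CPM in KO replicates 1 to 4, against 44.1, 58.8, 39.2 and 41.7 CPM in WT replicates 1 to 4, a log2 fold change of -0.30 (edgeR adjusted p = 0.999, and 0.0520 before adjustment). Nptx1 was at 239, 311, 306 and 185 CPM in KO and 257, 429, 284 and 370 CPM in WT replicates 1 to 4, with -0.36, and Nptxr, the membrane-anchored member, had -0.21. Nptx1 and Nptx2 were lowest in KO replicate 4 and highest in WT replicate 2, the libraries with the lowest and the highest sum of cortical markers (756 and 1467 CPM). Slc17a7 makes up most of that sum, and by the mean of centred log2 CPM KO replicate 4 was again lowest (-0.56) but WT replicate 4 (0.32), not WT replicate 2 (0.13), was highest. Nptxr was also highest in WT replicate 2 (835 CPM) but lowest in KO replicate 1 (445 CPM), with KO replicate 4 at 570 CPM. The part of cortical RNA in the pentraxin values was not tested. Nptxr shares exons with Npcd on the same strand.

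Genes whose profile over the 8 libraries lay nearest to each pore gene were found by the root mean square difference in centred log2 CPM, among 9894 genes with a mean of at least 10 CPM. For Gria2 they were Lasp1 (0.016), Camk2a (0.024) and Drp2 (0.028), against a median of 0.141 over all candidates. Gria1 was nearest to Pdk2 (0.029), Ctnnb1 (0.029) and Nisch (0.031), with a median of 0.124. Gria3 was nearest to Lgi1 (0.020), Tom1l2 (0.030) and D3Ertd254e (0.031), and Gria4 to Zfp612 (0.029), Rnf146 (0.029) and Ddx46 (0.032). As the smallest of 9894 distances, these values lie below the median by selection, and their closeness was not tested. Profiles with little variation are near one another by this measure. All genes were also measured in the same 8 libraries, which differed in depth and along base composition.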

How the data were processed

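Striatal poly(A) RNA from 4 Dclk3 KO and 4 WT mice was sequenced with a stranded kit, per the labels' protocols. The authors deposited 1 table of raw read counts per Ensembl gene. The submitters' processing notes name bcl2fastq 2.17.1.14 and build mm10. No aligner, counting tool, annotation or strand setting is named in the sources used here. Symbols, positions, lengths and transcript sequences came from GENCODE M21 (GRCm38), which matched 31292 of 31417 identifiers. The whole table was fitted in edgeR 4.0.16 (R 4.3.3). The filter filterByExpr, with a minimum count of 10, kept 16511 genes. Libraries were scaled by TMM, and genotype was tested in all 8 libraries by a robust quasi-likelihood fit, two-sided, with Benjamini-Hochberg adjustment and a threshold of 0.05. Alternatives used DESeq2 1.42.0 and limma 3.58.1. The fit was also run on simulated data, and no outcome of that run is given here. Chi-square per degree of freedom between libraries of a genotype was 7.07 to 32.1, so none was a copy. PCR copies are not independent molecules, so counting error is a lower bound on the technical error. Members and lists were chosen with earlier results of these data known. Named are the 9 members, Dclk3, the 3 smallest p in each partner list, and the 3 genes nearest to each pore gene; other genes named were chosen after their values were seen. Of the genes this rule names, 1 is not reported here.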

Additional observations from a re-analysis of the deposited data

Results flagged for a closer look

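In 2 of 22 groups of 4 libraries checked, 1 library stood far from the other 3 by Dixon's criterion, and chance alone gives about 5%. Gria1 in KO replicate 4 was at 528.7 CPM, with the other KO libraries at 467 to 476 CPM. Cacng8 in KO replicate 1 was at 27.18 CPM, with the other KO libraries at 31.8 to 32.6 CPM.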

How the results depend on the processing

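With 16 alternatives, 0 of the 9 members and 0 of the 40 tested partner genes passed the threshold in any, and 6 members (Gria1, Gria2, Gria3, Gria4, Cacng2 and Cnih3) kept the sign of their fold change in all of them. Sizes moved by over 1.5 times when single libraries were left out: without WT replicate 2, Gria1 was at -0.0071, Gria2 at 0.022 and Gria3 at 0.018, without KO replicate 4 Gria1 was at -0.093, Gria2 at 0.12 and Cacng2 at 0.092, without KO replicate 3 Gria1 was at -0.032, Gria2 at 0.033, Gria3 at 0.026 and Cacng2 at 0.014, without WT replicate 4 Gria1 was at -0.076, Gria2 at 0.12 and Gria3 at 0.094, without WT replicate 3 Cacng2 was at 0.015, without KO replicate 2 Gria3 was at 0.029, and without KO replicate 1 Gria1 was at -0.031 and Cnih3 at -0.11. With single libraries left out, Cnih2 ran from -0.19 without WT replicate 4 to -0.018 without WT replicate 2. Without both libraries numbered 4, Gria1 was at -0.12, Gria2 at 0.16, Gria3 at 0.11 and Gria4 at 0.14. In that setting Cacng2 was at 0.12, Cacng3 at 0.076, Cacng8 at -0.17, Cnih2 at -0.22 and Cnih3 at -0.17. The lowest unadjusted p there was 0.0101, for Cnih2, and the lowest adjusted p of the members 0.398 (edgeR). Signs turned for Cacng3 with limma-voom (-0.0056) and without WT replicate 2 (-0.042 there, up to 0.107 with other single libraries left out), for Cacng8 without WT replicate 2 (0.035 there, down to -0.143) and for Cnih2 with the library's GC difference as a covariate (0.0020); the cause was not tested. The median of the members, 0.036, was -0.0056 with limma-voom and 0.076 without both libraries numbered 4, and 0.011 to 0.063 when single libraries were left out. Dclk3 kept its call except with no filter on low counts (log2 fold change -2.07, adjusted p 0.0647, edgeR). The Gria2 share in WT was 29.3% with the longest protein-coding transcript and 44.1% without length; its KO minus WT difference ran from 0.131 to 2.10 percentage points when single libraries were left out. Deviations of same-numbered libraries correlated at 0.037, 0.021, 0.053 and -0.276, and those of differently numbered libraries at -0.162 to 0.24. These values show no pairing by replicate number, but they cannot exclude that the samples were paired. With the replicate block 0 members passed and Cnih3 was at -0.19 (0.0134 before adjustment, edgeR). Each member had at least 663 counts in every library.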
